A study of Mus musculus with 6 samples.

Results

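Sox9 and 8 genes that are used as markers of cholangiocytes, the epithelial cells lining the bile ducts, were followed in liver endothelial cells (ECs) of young and aged mice. The 9 genes were Sox9, Sox4, Epcam, Krt7, Krt19, Krt8, Krt18, Spp1 and Cftr, out of 24421 gene symbols with counts. They were chosen from genes whose measured level was already known to be higher in the aged samples or that stand beside those genes in bile ducts, so their age differences are given as a description without a test. All 9 passed the filter on low counts (at least 0.5 CPM, counts scaled by library size, in at least 1 sample), but Cftr passed only through the 136-week sample. The 3 young samples came from 10-week-old mice and the 3 aged samples from mice of 127, 131 and 136 weeks, and each sample is named here by its replicate number or its age. All were wild-type C57BL/6J animals without a transgene or treatment, and the methods state that only females were used. From the livers, cells with the endothelial surface protein CD31 and without the leukocyte protein CD45 (CD31+CD45-) were sorted before bulk RNA sequencing, so that any other cell passing the gate adds to the same library. The comparison asks whether Sox9 was higher in aged ECs together with bile duct genes or on its own.

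SOX9 is a transcription factor of the high mobility group family that binds short A/T-rich sites in DNA. In the liver it marks cholangiocytes from their first appearance in the embryo, and Notch and YAP signaling are known to act upstream of it. Cholangiocytes carry a simple-epithelial keratin skeleton of KRT7, KRT8, KRT18 and KRT19, the adhesion protein EPCAM, the secreted phosphoprotein osteopontin (Spp1) and the chloride channel CFTR. None of these genes is exclusive to bile ducts, since hepatocytes carry KRT8 and KRT18, mesothelial cells carry several of the keratins, and macrophages and other cells can secrete osteopontin.

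On the mm9 assembly Sox9 lies at chr11:112643538-112649074 on the plus strand and Sox4 at chr13:29040788-29045582 on the minus strand. Krt8 (chr15:101827142-101834773, minus strand) and Krt18 (chr15:101858647-101862457, plus strand) are neighbors whose starts lie 23874 bases apart on opposite strands, and Krt7 (chr15:101241474-101260744, plus strand) starts 593299 bases from Krt8. Krt19 lies on another chromosome, at chr11:100002124-100009979 on the minus strand. Epcam was taken from chr17:88035319-88050446, Spp1 from chr5:104864137-104870069 and Cftr from chr6:18120687-18272768, all 3 on the plus strand. The 250 bases before the start of 7 of the 9 genes were found in the RefSeq promoter table (GRCm38.p6 assembly), while Sox9 and Krt19 had no entry. The sequences of Krt8 and Krt18 are shown because the 2 neighbors encode the partners of 1 filament and both separated the ages. Those of Krt7, whose ages overlapped, and of Spp1, the most abundant of the 9 transcripts, are shown for contrast. Each is written 5′ to 3′ on its gene's strand, and capitals mark matches to 5 motifs searched on both strands. These were the TATA box, spelled TATAAA, the box that binds nuclear factor Y, spelled CCAAT, and the GC box of the factor SP1, spelled GGGCGG. Also searched were the site of AP-1 (JUN and FOS), spelled TGANTCA, and a core that SOX proteins bind, spelled ACAANG.
Krt8 (chr15:102004343-102004592, minus strand): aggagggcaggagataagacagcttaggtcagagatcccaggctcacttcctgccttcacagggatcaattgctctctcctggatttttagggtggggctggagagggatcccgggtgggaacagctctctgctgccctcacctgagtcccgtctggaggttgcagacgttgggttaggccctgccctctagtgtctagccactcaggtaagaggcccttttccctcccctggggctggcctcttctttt
Krt18 (chr15:102027966-102028215, plus strand): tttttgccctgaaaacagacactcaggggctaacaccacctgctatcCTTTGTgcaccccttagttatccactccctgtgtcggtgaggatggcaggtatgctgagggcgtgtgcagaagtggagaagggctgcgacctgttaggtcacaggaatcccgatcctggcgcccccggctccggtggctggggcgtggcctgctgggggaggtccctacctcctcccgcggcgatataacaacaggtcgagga
Krt7 (chr15:101412153-101412402, plus strand): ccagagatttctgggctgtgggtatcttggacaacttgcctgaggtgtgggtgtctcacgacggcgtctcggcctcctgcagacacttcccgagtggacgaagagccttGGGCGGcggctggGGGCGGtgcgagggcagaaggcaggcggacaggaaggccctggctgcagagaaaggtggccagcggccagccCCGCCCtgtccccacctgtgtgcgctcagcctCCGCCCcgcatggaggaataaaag
Spp1 (chr5:104434861-104435110, plus strand): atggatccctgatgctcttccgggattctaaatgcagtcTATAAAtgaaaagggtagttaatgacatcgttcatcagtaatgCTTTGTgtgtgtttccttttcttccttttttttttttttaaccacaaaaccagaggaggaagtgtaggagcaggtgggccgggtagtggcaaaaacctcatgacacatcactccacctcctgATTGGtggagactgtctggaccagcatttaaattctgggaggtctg
No letters of Krt8 matched any of the 5 motifs in this window. Krt18 held 1 match to the SOX core, beginning at base -203 from the start of the gene, and Spp1 held 1 at -168 beside a TATA box at -211 and a CCAAT box at -46. The table lists a second start of Spp1, whose window (chr5:104435942-104436191) held 1 SOX match at -243 and no match to the other 4 motifs. Krt7 held 4 GC boxes and 16 CpG dinucleotides, against 12 CpG in Krt18, 3 in Krt8 and a median of 6 over all promoters. No match overlapped a match to another motif. Over 32851 promoters of the same length, 36.3% held the SOX core, 33.8% the CCAAT box, 32.7% the GC box, 12.4% the TATA box and 6.75% the AP-1 motif, so a single match is common. A match is a description of the letters and was not tested as a binding site.

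Total counts were between 23001556 and 31651817 per sample, so that 3 counts corresponded to 0.0947 to 0.135 CPM. Lars2 and Rn45s, which collect ribosomal RNA reads, took 1.29% of the counts of young replicate 3 and 0.960% of those at 127 weeks but 4.68% to 5.53% in the other 4 samples. Differences of the 9 genes are therefore also given within these 2 library clusters, first for the libraries with many of these reads. No pair of samples of the same age looked like 1 library deposited under 2 names, since the chi-square per degree of freedom between their counts was 21.3 to 198. Pecam1, which encodes CD31 and checks the endothelial label, stood at 1369, 1373 and 1589 CPM in young and 1366, 1374 and 1635 CPM in aged samples. In contrast, the summed level of 12 endothelial markers was lower in the aged samples (14700, 18700 and 13600 CPM at 127, 131 and 136 weeks) than in the young ones (23000 to 24600 CPM). The means of the sinusoidal genes Clec4g (3938 to 1429 CPM) and Stab2 (3041 to 935 CPM) were lower in aged samples, as were those of Kdr and Eng. Cdh5, Tie1, Erg and Emcn, in contrast, overlapped between the ages. The methods say that the samples of each age were collected independently, but the count of mice behind a sample was not given in the sources used here.

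All 9 genes had a higher mean in aged than in young ECs, but only 5 of them separated the ages completely. For Sox9, Sox4, Krt8, Krt18 and Spp1 every aged sample lay above every young sample, whereas the ages overlapped for Epcam, Krt7, Krt19 and Cftr. Of the 14612 genes tested, 9.62% had every aged sample above every young one, and nothing can be read from that share for genes chosen on this contrast. The quasi-likelihood test of edgeR called 0% of all genes higher and 0% lower in aged ECs at an adjusted p of 0.05 and a log2 fold change beyond 1, the smallest adjusted p being 0.0735. At an unadjusted p of 0.05 and the same fold change, 5.43% of the genes were higher and 1.19% lower, and DESeq2 with adjustment called 2.77% higher and 0.54% lower. In these bulk libraries, more cells of a type and more RNA per cell cannot be told apart. Levels are compared between genes only as FPKM, the deposited value per transcript length.

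**Figure D1:**
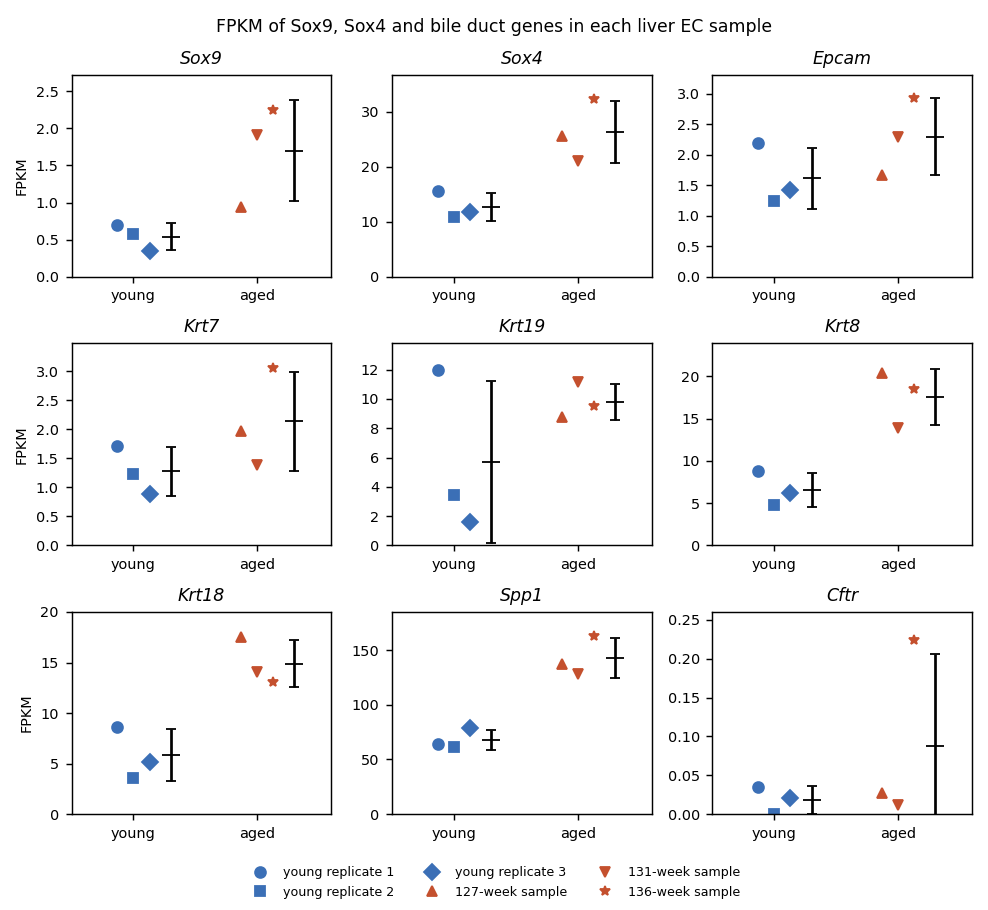
FPKM (vertical axes, each from 0) of the 9 genes in each of the 6 liver EC samples; symbols are single samples in the order given in the key, and the black bar beside each age is the mean ± SD over 3 samples, cut at 0 for Cftr. Sox9, Sox4, Krt8, Krt18 and Spp1 show no overlap between ages, and young replicate 1 is the highest of the 6 samples for Krt19.

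Sox9 was a low transcript in these libraries. Its FPKM was 0.701, 0.574 and 0.347 in young replicates 1 to 3 and 0.937, 1.91 and 2.25 in the 127-, 131- and 136-week samples, which rested on 77, 52 and 44 against 110, 201 and 227 counts. Thus the lowest aged sample was only slightly above the highest young one, and most of the difference came from the 131- and 136-week samples. Young ECs had a mean FPKM of 0.541 ± 0.179 and aged ECs one of 1.70 ± 0.680 (SD, n = 3 each). In the edgeR fit of the counts this was a log2 fold change of 1.66 with a standard error (SE) of 0.44. Leaving out each sample in turn gave log2 fold changes of 1.40 to 1.96. Within the libraries with many Lars2 and Rn45s reads the log2 difference was 1.54, and it was 1.18 between the 2 libraries with few. On the FPKM scale 53.4% of the genes had a lower mean than Sox9 over the 6 samples.

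Sox4, a related factor of the same DNA-binding family that takes part in bile duct formation, was far more abundant. Its FPKM was 15.6, 10.8 and 11.9 in young and 25.6, 21.0 and 32.4 in the 127-, 131- and 136-week samples. The groups were clearly apart, with a mean of 12.8 ± 2.53 for the young samples against 26.3 ± 5.70 for the aged samples (SD, n = 3 each) and a log2 fold change of 1.05 (SE 0.22). The range over samples left out was 0.87 to 1.24, and the differences within the 2 library clusters were 1.00 and 1.11. Per transcript length Sox9 stood at 0.0292 to 0.0531 of the Sox4 level in young and at 0.0366, 0.0906 and 0.0695 in the aged samples of 127, 131 and 136 weeks. The exons of Sox4 share 2616 bases with an antisense RNA, Gm17419, so that reads from either strand could enter its count if strand was not used.

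Keratins 8 and 18 pair to form the first filaments of simple epithelia, and their transcripts gave the clearest keratin difference. The FPKM of Krt8 was 8.78, 4.82 and 6.18 in young and 20.4, 13.9 and 18.5 in aged samples in the order of age. That of Krt18 was 8.66, 3.61 and 5.18 in young and 17.5, 14.1 and 13.1 in aged samples. For both genes all aged samples were higher than all young ones, and the 127-week sample, which was the lowest aged sample for Sox9, was the highest of all. The log2 fold change was 1.43 (SE 0.27) for Krt8 and 1.35 (SE 0.33) for Krt18, with 1.25 to 1.70 and 1.11 to 1.77 when samples were left out. Within the library clusters the log2 difference was 1.27 and 1.70 for Krt8 and 1.22 and 1.68 for Krt18. The ratio of Krt18 to Krt8 in FPKM was 0.987, 0.749 and 0.838 in young and 0.856, 1.02 and 0.709 in aged samples, so the ratio overlapped between the ages while both levels differed. Krt8 has a near-copy elsewhere in the genome, at chr7:24142113-24143830 of mm9, that matches 1733 of its 1805 transcript bases at 97.9% identity. Of the 75-base windows of the Krt8 transcript, the length of the reads, 41.9% occur there as well, so its count is uncertain. The copy lies within Nlrp4e, which had 0 counts in all 6 samples.

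Krt7 and Krt19, the keratins that distinguish bile ducts from hepatocytes, separated the ages less clearly. The FPKM of Krt19 was 11.96, 3.47 and 1.61 in young and 8.78, 11.2 and 9.50 in aged samples. Young replicate 1 was the highest of all 6 samples, while the other 2 young samples lay below all aged ones. The log2 fold change was 0.79 (SE 0.65) and depended on single samples, being 1.97 without young replicate 1 and 0.34 without young replicate 3. The FPKM of Krt7 was 1.72, 1.23 and 0.882 in young and 1.98, 1.38 and 3.06 in aged samples. Its highest value was at 136 weeks, but the 131-week sample lay inside the young range, and the log2 fold change of 0.74 (SE 0.45) was 0.38 without the 136-week sample. Within the library clusters the log2 difference was 0.63 and 2.195 for Krt19 and 0.44 and 0.86 for Krt7. The ratio of Krt19 to Krt7 in FPKM varied from 1.82 to 6.97 in young and from 3.11 to 8.09 in aged samples.

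Epcam, an adhesion protein of epithelial cells that is absent from mature hepatocytes, had an FPKM of 2.19, 1.24 and 1.43 in young and 1.67, 2.30 and 2.92 in aged samples. Young replicate 1 fell between the aged samples, and the log2 fold change of 0.51 (SE 0.37) was the smallest of the 9 genes. It was 0.30 without the 136-week sample and 0.80 without young replicate 1, and the differences within the library clusters were 0.58 and 0.20. The ratio of Sox9 to Epcam in FPKM was 0.321, 0.462 and 0.243 in young and 0.562, 0.830 and 0.768 in aged samples, with no overlap between the ages, although both levels belong to the contrast from which the genes were chosen.

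Spp1, which encodes osteopontin, was the most abundant of the 9 transcripts, with 96.4% of all genes below its mean FPKM. Its FPKM was 64.0, 61.5 and 78.4 in young and 136.9, 127.8 and 163 in aged samples. The samples of each age lay close together, at a mean of 68.0 ± 9.11 for young against 142.5 ± 18.3 for aged samples (SD, n = 3 each), and the log2 fold change of 1.08 had the smallest SE of the 9 genes (0.16). Values with a sample left out were 0.97 to 1.18, and those within the library clusters 1.20 and 0.82. Cftr, the chloride channel of the duct lumen, was close to the limit of detection, with 6, 0 and 4 counts in young and 5, 2 and 35 counts in aged samples. Only the 136-week sample stood out, so that the log2 fold change of 2.17 (SE 1.38) rested on 1 sample. Without that sample Cftr did not pass the filter, and on the log2(FPKM + 1) scale its difference was 0.09. Within the library clusters it differed by 0.81 and 0.10 on the log2(CPM + 0.5) scale.

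**Figure D2:**
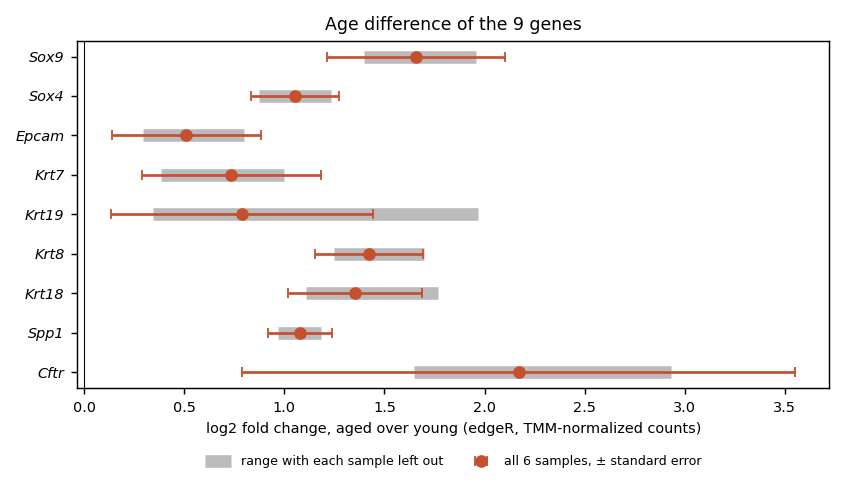
Log2 fold change of aged over young ECs (horizontal axis) for the 9 genes, from edgeR on the counts of 3 samples per age; points with bars are the estimate ± SE and grey bands span the estimates with each sample left out in turn, except that Cftr has none without the 136-week sample. The bands of Krt19 (0.34 to 1.97) and Cftr (1.65 to 2.93) are the widest and that of Spp1 (0.97 to 1.18) is the narrowest.

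The aged samples did not rank in the same order for Sox9 and the keratins. Relative to the mean of the young samples on the log2(CPM + 0.5) scale, Sox9 stood at 0.71, 1.66 and 1.89 in the 127-, 131- and 136-week samples, whereas Krt8 stood at 1.63, 1.10 and 1.50 and Krt18 at 1.59, 1.31 and 1.21. Sox4 (1.00, 0.75 and 1.37) and Spp1 (1.00, 0.93 and 1.28) were highest in the 136-week sample, as was Sox9. Altogether 6 of the 9 genes peaked at 136 weeks, against 25.7% of all genes tested. The 9 were chosen with their age difference known, which favors a peak in an aged sample, so nothing can be read from this contrast. Young replicate 1 was the highest of the young samples for 8 of the 9, Spp1 being the exception, against 31.5% of all genes. Without young replicate 1, 8 of the 9 genes had every aged sample above the remaining young ones, while the corresponding share of all genes went from 9.62% to 13.3%. Leaving out any other sample gave 5 or 6 of the 9, against 12.3% to 18.5% of all genes. The 9 were chosen on the age contrast, and young replicate 1 was the highest young sample for 8 of them. A higher count without it was thus favored, and nothing can be read from these counts either.

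The genes whose profile was most like that of Sox9 were sought over all 6 samples, as the root mean square distance between centred log2(CPM + 0.5) profiles. The nearest of 14611 genes was Pltp, a phospholipid transfer protein of plasma lipoproteins, at a distance of 0.0973. Its CPM was 87.8, 76.4 and 48.6 in young and 93.5, 208 and 251 in aged samples, with the same order of samples as Sox9. Next came Mgp, an inhibitor of calcification made by vessels and cartilage (0.173), Utp14b (0.212), the epithelial transcription factor Klf5 (0.220) and the secreted hormone Stc1 (0.229). The median distance over all genes was 0.88. None of the 8 other genes described here was among the nearest, Sox4 being 280th (0.452), Spp1 441st (0.498), Krt8 656th (0.538) and Epcam 754th (0.553). Krt18 (939th), Krt7 (973rd), Krt19 (1550th) and Cftr (2090th) followed at 0.581, 0.585, 0.643 and 0.679. All 8 were thus nearer to Sox9 than the median gene. They were chosen with their age difference known, and that difference also enters the distance. The profiles share the same 6 libraries, and the order of the nearest genes depended on the prior count, with 3 of these 5 genes kept at 0.1 CPM and 2 at 2 CPM. Pltp was still the nearest at 0.1 CPM but was not among the nearest 5 at 2 CPM.

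Cholangiocyte genes outside the 9 showed a similar mixture. Of 22 genes in a list of bile duct genes, 20 were tested, and 18 of these had a positive log2 fold change, with a median of 1.04 against 0.01 over all genes tested, of which 51.1% were positive. Every aged sample lay above every young one for 9 of the 20 and below for 1 (9.62% and 8.33% of all genes). edgeR called 0 of the 20 with adjustment (adjusted p 0.209 to 0.982). An unadjusted edgeR p below 0.05 with a log2 fold change above 1 was found for 5 (5.43% of all genes), and DESeq2 called 3 (2.77% of all genes). Tspan8 and Cd24a were among these 3. Without young replicate 1, which was the highest young sample for 13 of the 20, 15 of the 20 separated the ages (13.3% of all genes). Without another sample 9 to 11 did (12.3% to 18.5% of all genes). Within the library clusters rich and poor in Lars2 and Rn45s the median difference was 0.81 and 1.01. This list and those below were chosen with earlier results of these data known. Their counts and p-values are therefore descriptions, and nothing can be read from setting them against the share of all genes.

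Tspan8, a tetraspanin of epithelial surfaces, had a CPM of 1.68, 2.35 and 1.58 in young and 5.23, 6.15 and 15.6 in aged samples (log2 fold change 2.27, SE 0.48, edgeR adjusted p 0.209). All 3 aged samples were above the young ones, and the 136-week sample was the highest. Cd24a, a surface protein of duct cells that many leukocytes carry as well, had a CPM of 32.9, 18.8 and 14.4 against 69.3, 53.9 and 116 (log2 fold change 1.85, SE 0.39, edgeR adjusted p 0.209). The tight junction genes Cldn3 and Cldn4 had log2 fold changes of 1.13 and 2.27 (edgeR adjusted p 0.353 and 0.334), and their ages were also separate. Slc4a2, an anion exchanger found in many cells, was lower in every aged sample, with a log2 fold change of -0.28 (SE 0.15, edgeR adjusted p 0.484). The summed CPM of the 22 genes was 155, 106 and 115 in young and 194, 182 and 258 in aged samples. Without Cd24a and Slc4a2, its most abundant members, it was 61.2, 25.9 and 29.3 in young and 64.4, 77.2 and 93.8 in aged samples, so that young replicate 1 came near the lowest aged sample. The mucin Muc1, chosen after its values were seen, resembled Krt19 in being highest in young replicate 1 (14.9 CPM, against 1.76 and 2.05 in the other young and 7.27 to 8.12 in the aged samples).

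**Figure D3:**
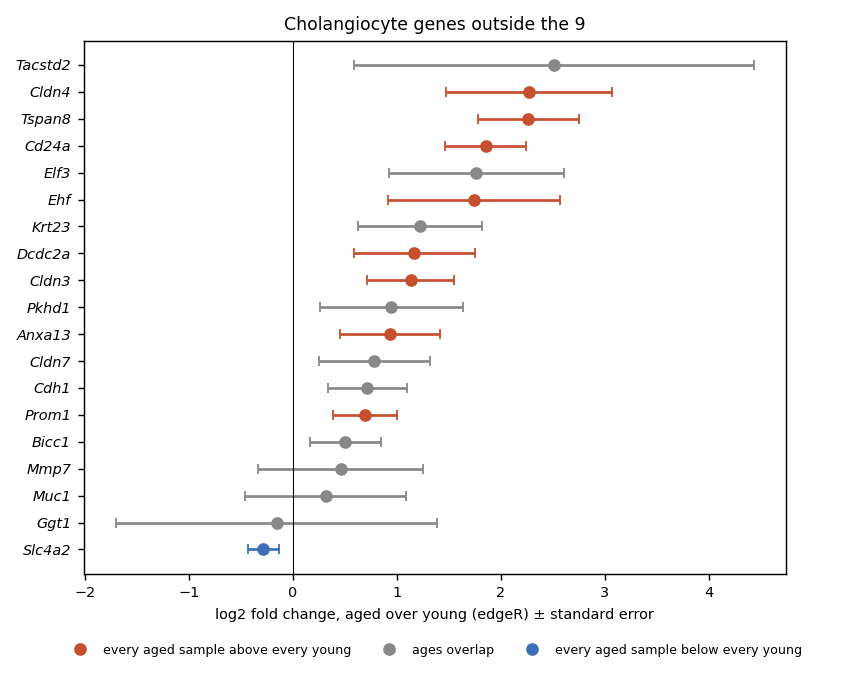
Log2 fold change of aged over young ECs ± SE (horizontal axis, edgeR, 3 samples per age) of 19 of the 20 tested cholangiocyte genes outside the 9, ordered by size and colored by whether the ages overlap. Points of 17 genes lie right of 0, 8 of them with every aged sample above every young one, and Slc4a2 alone has every aged sample below.

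Genes that build on or resemble the keratins and Sox9 were compared in the same way. Of 9 other keratins 6 were tested, and the epidermal keratin Krt80 was the only one with every aged sample above the young ones. Its CPM was 0.447, 0.0903 and 0.252 in young and 0.791, 1.40 and 25.2 in aged samples, so its log2 fold change of 5.07 (SE 1.47, edgeR adjusted p 0.266) was carried by the 136-week sample and was 2.02 without it. Krt15, a keratin of stratified epithelia, was likewise at 4.83 CPM in the 136-week sample and at 0 in the other aged ones. A list of desmosome and filament linker genes, which anchor keratins at cell junctions, also held Vim, a filament gene that is not such a linker. The 10 genes of the list were positive for 10 of 10 with a median log2 fold change of 0.98, and 6 of the 10 separated the ages (9.62% of all genes). Among them Dsg2, a desmosomal cadherin that ECs also make, had a CPM of 4.91, 5.14 and 5.52 in young and 8.91, 12.3 and 8.61 in aged samples (log2 fold change 0.94, edgeR adjusted p 0.243). Ppl, a linker of keratin to the membrane, had a log2 fold change of 1.26 (edgeR adjusted p 0.251). Jup, a catenin common to endothelial and epithelial junctions, was at 264 to 388 CPM in young and 401 to 430 CPM in aged samples.

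Other SOX genes included those by which ECs are known. Of 12, 9 were tested and all 9 had a positive log2 fold change (median 0.46), but edgeR adjusted p values were 0.235 to 0.986. Sox7, a factor of the group that specifies vessels, had a CPM of 164, 192 and 177 in young and 265, 335 and 526 in aged samples, and its log2 fold change of 1.08 (SE 0.26) had an edgeR adjusted p of 0.235. It was higher in all 3 aged samples and highest at 136 weeks, as Sox9 was. Sox17, of the same group, was 0.46 higher on the log2 scale (edgeR adjusted p 0.324) and Sox13 0.67 (edgeR adjusted p 0.267), and both separated the ages. Sox18, the third member of the vessel group, overlapped between ages at 229 to 281 CPM in young and 214 to 330 CPM in aged samples. Its log2 fold change was 0.02 and changed sign under several settings. Cartilage genes that SOX9 binds in chondrocytes were mostly absent, with Col2a1, Col9a1 and Matn1 at 0 in all samples and 3 of 10 genes tested. Of these Comp, a matrix protein, had a CPM of 11.4, 9.93 and 5.27 in young and 36.0, 11.4 and 56.8 in aged samples (log2 fold change 1.97, SE 0.57, edgeR adjusted p 0.265). The 131-week sample, in which Sox9 was high, lay level with young replicate 1 for Comp. Col11a2 had a log2 fold change of 2.24 (edgeR adjusted p 0.331).

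Notch and YAP signaling is known to act upstream of Sox9 in biliary cells, and 15 genes of these pathways were all tested. The list includes target genes of both pathways, so it is not one of Sox9 regulators alone. A positive log2 fold change was found for 12 of the 15, with a median of 0.27, and 7 had every aged sample above every young one (9.62% of all genes). edgeR called 0 with adjustment (adjusted p 0.193 to 0.927). Without adjustment 3 passed as higher (5.43% of all genes), and DESeq2 called the same number higher (2.77% of all genes). The Notch ligand Jag1 had a CPM of 119.6, 98.5 and 88.7 in young and 211.3, 167.1 and 247.1 in aged samples (log2 fold change 1.03, SE 0.20, edgeR adjusted p 0.193). Hey1, a Notch target in ECs, had a CPM of 10.6, 14.0 and 14.9 against 35.9, 31.9 and 88.0 (log2 fold change 1.98, SE 0.41, edgeR adjusted p 0.203). For both the aged samples were clearly apart from the young ones. Ankrd1, a YAP target, was at 0.223 to 0.442 CPM in young and 0.934 to 3.06 CPM in aged samples (log2 fold change 2.87, edgeR adjusted p 0.235), and Cyr61, another YAP target, was 0.83 higher on the log2 scale (edgeR adjusted p 0.250). In contrast Ctgf, a YAP target of similar CPM, had a log2 fold change of -0.39 (edgeR adjusted p 0.761), which was 0.26 without young replicate 3. The Notch target Hes1 overlapped between ages, at 485.5 to 552.7 CPM in young and 375.8 to 856.5 CPM in aged samples (log2 fold change 0.27, edgeR adjusted p 0.769). Of 9 integrin and CD44 genes for receptors of osteopontin, 0 separated the ages upward and 2 downward (8.33% of all genes). These were Itga9, at 424 to 565 CPM in young and 227 to 311 CPM in aged samples (log2 fold change -0.89, edgeR adjusted p 0.209), and Itga8 (log2 fold change -0.67, edgeR adjusted p 0.317).

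Markers of other cells that could pass the gate did not all differ in one direction. Mesothelial cells, which also carry simple-epithelial keratins, were followed with 7 genes, of which Gpm6a was the most abundant and was 0.81 higher in aged ECs on the log2 scale (edgeR adjusted p 0.293). The other 6 genes together stood at 7.74, 3.97 and 5.93 CPM in young and at 0.31, 1.36 and 2.44 CPM in aged samples. Among these, Msln (log2 fold change -2.0, edgeR adjusted p 0.364) and Upk3b (log2 fold change -2.30, edgeR adjusted p 0.267) were lower in each aged sample. Both were low transcripts, at 0.138 and 0.172 CPM in the 127-week sample, where 3 counts correspond to 0.103 CPM. Gpm6a, in contrast, was higher in each aged sample, at 193 to 326 CPM in young and 354 to 553 CPM in aged samples. Hepatocyte markers had a negative log2 fold change for 10 of 11 (median -0.76), and 5 had every aged sample below every young one (8.33% of all genes). The sum of the list was 250 to 328 CPM in young and 192 to 313 CPM in aged samples. Much of it was Trf, the only positive gene (log2 fold change 0.33, edgeR adjusted p 0.724). Trf stood at 116 to 172 CPM in young and 105 to 243 CPM in aged samples. Among the other hepatocyte markers Alb was 0.48 lower on the log2 scale (edgeR adjusted p 0.449) and Fgb 1.23 lower (edgeR adjusted p 0.243).

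Leukocyte markers were higher in part of the aged samples. The sum of 10 lymphocyte and pan-leukocyte genes was 11.2 to 19.0 CPM in young and 41.0, 13.3 and 150 CPM at 127, 131 and 136 weeks, with 10 of 10 positive and a median log2 fold change of 2.28. Ptprc, which encodes CD45, had a log2 fold change of 2.95 (edgeR adjusted p 0.301) and Coro1a 1.96 (edgeR adjusted p 0.301). The sum of 10 macrophage genes was 43.0 to 82.0 CPM in young and 182, 30.5 and 445 CPM in aged samples, and Lyz2 had a log2 fold change of 2.55 (edgeR adjusted p 0.332). Without the 136-week sample the log2 fold changes were 1.58 for Ptprc, 0.99 for Coro1a and 1.26 for Lyz2. The 136-week sample, highest for 6 of the 9 genes described here, was also the highest for these cells. The 131-week sample had the lowest macrophage sum of all 6 samples and a leukocyte sum within the young range. In that sample Sox9 (1.91 FPKM), Sox4 (21.0), Krt8 (13.9), Krt18 (14.1) and Spp1 (127.8) were above every young sample. This follows from their complete separation of the ages. Epcam (2.30 FPKM) was above as well, while Krt7 (1.38), Krt19 (11.2) and Cftr (0.012) lay within the young range. Stellate and mural genes overlapped between the ages (148 to 452 CPM in young, 250 to 739 CPM in aged samples), with 6 of 10 positive and a median log2 fold change of 0.11. Lrat, which defines stellate cells, had a log2 fold change of -2.19 (edgeR adjusted p 0.286), or -1.25 without young replicate 1, whereas that of Reln, another gene of the list, was 1.24 (edgeR adjusted p 0.424), or 0.77 without the 136-week sample. Among endothelial markers 6 of 12 had every aged sample below every young one (8.33% of all genes), with Stab2 at -1.70 (edgeR adjusted p 0.265) and Clec4g at -1.46 (edgeR adjusted p 0.308), both of sinusoidal ECs. Lyve1, also of sinusoidal ECs, overlapped between ages with a log2 fold change of 0.58 (edgeR adjusted p 0.752), which was -0.27 without the 136-week sample. The part of these cells in the levels of the 9 genes was not tested.

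**Figure D4:**
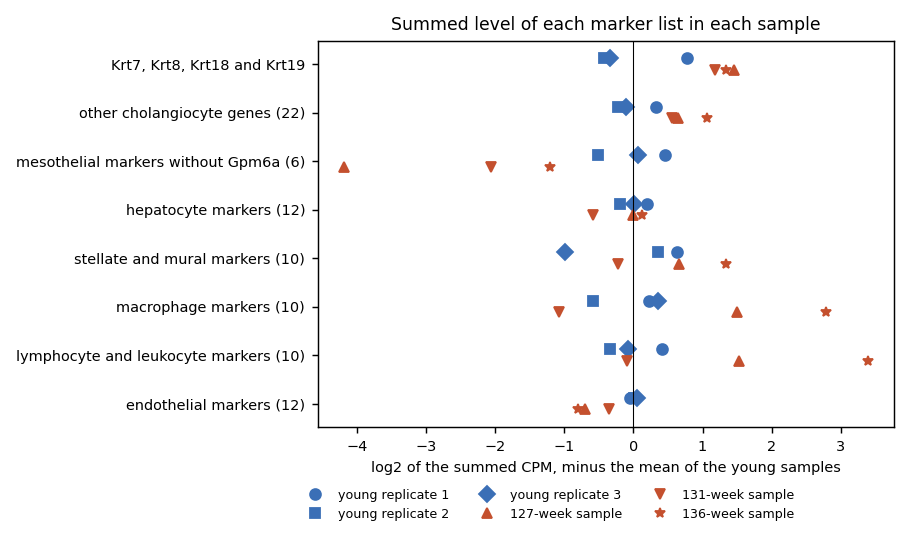
Summed CPM of 4 keratins and of marker lists (the mesothelial one without Gpm6a, with which its sum is higher in aged samples) in each of the 6 samples, as the log2 of the sum minus the mean of the young samples (horizontal axis); symbols are single samples as named in the key. The keratin and cholangiocyte sums of the aged samples lie right of the young ones, and the mesothelial sum without Gpm6a and the endothelial sum lie left. Cd24a and Slc4a2 are kept in the cholangiocyte sum. Without them young replicate 1 (61.2 CPM) comes near the 127-week sample (64.4 CPM). The macrophage and leukocyte sums of the 131-week sample stay with the young samples or below them. The hepatocyte sum includes Trf, its most abundant gene and the only tested one with a positive log2 fold change.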

How the data were processed

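Liver ECs sorted as CD31+CD45- in 3 young and 3 aged samples were sequenced as single-end 75-base reads. Per the labels and the submitters' processing notes, bases were called with CASAVA 1.8.2 and reads mapped to mm9 with TopHat2 2.1.0. The authors deposited whole-number read counts for 24421 symbols, without normalization, and FPKM values for 24346 symbols, scaled between samples by Cuffnorm 2.2.1. The counting program, its annotation and its use of strand are not given in the sources used here.

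Genes with at least 0.5 CPM in at least 1 sample (14612) were normalized by TMM (factors 0.964 to 1.11) and tested in edgeR 4.0.16 (R 4.3.3), with Benjamini-Hochberg adjustment over all of them, at 0.05 and a log2 fold change beyond 1. P-values set the age difference against the spread between samples of the same age. Whether that spread is one between animals is not known, as the count of mice behind a sample was not given. Each SE was obtained from the log2 fold change and the root of its F statistic. limma 3.58.1 and DESeq2 1.42.0 served as alternatives. The test was tried on simulated data. The 2 ages share no replicate numbers. Copies of transcripts were sought in mm9 with blastn 2.17.0 (95% identity, 75-base windows). Positions are from GENCODE for mm9 and promoters from RefSeq. Floors of 3 counts cover counting error only, as the reads carry no molecular identifiers.

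The 9 genes and the gene lists were chosen with earlier results of these data known. Named are the 9 genes, up to 4 of each list by mean FPKM, and the 5 genes nearest to Sox9. Also named are list genes past the same fold limit at an edgeR p of 0.05 before adjustment or a DESeq2 adjusted p of 0.05. Of all named genes, the ones the results turn on are printed. One list gene is counted in its list but not reported here.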

Additional observations from a re-analysis of the deposited data

How the results depend on the processing

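The 9 genes kept a positive log2 fold change in all 142 values from 16 alternatives, and 137 of these moved by less than the spread between replicates. On the log2(FPKM + 1) scale, which understates low genes, Sox9 moved to 0.78 and Cftr to 0.09, and with a pseudocount of 0.1 Cftr was at 0.50. Without young replicate 1, Krt19 moved to 1.97 and Cftr to 2.93. The count of the 9 with every aged sample above every young one, 5 in the fit reported, was 5 to 8 with a sample left out, and that over all genes, 1405, was 1788 to 2698. Against 0 genes called higher and 0 lower by edgeR, 3 and 1 were called without a filter on low counts, 395 and 77 by DESeq2, 13 and 2 by limma-voom with sample quality weights, 1 and 1 with a term for the library cluster, and 0 to 1 and 0 with a sample left out. Sox18 changed sign to -0.0499 with limma-voom, -0.0163 and -0.0161 with FPKM pseudocounts of 0.1 and 1 and -0.0117 with the cluster term, with -0.21 to 0.13 over samples left out, and Pecam1 gave -0.0738 to 0.0901 over samples left out. Ctgf changed sign to 0.15 with limma-voom and ran from -0.65 to 0.26 over samples left out, while Hes1 gave -0.0139 to 0.54 and Lyve1 -0.27 to 1.03. DESeq2 called 16 of 38 other named genes that edgeR did not. Over all genes it called 2.77% higher and 0.54% lower. The named genes were picked partly for passing such a threshold, so nothing can be read from the difference. The median of all genes was shifted by at most 0.06, with total counts as library size. Depth limits Cftr most, and each age has 3 samples. The causes of these changes were not tested.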
